A study of Mus musculus with 20 samples.

Results

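The placental prolactin and cathepsin gene clusters of mouse chromosome 13 were examined for promoter methylation in single mouse blastocysts, with and without a maternal mutation of Padi6. Members were all promoter windows of 3500 bp on chromosome 13 of build GRCm39 whose start lay between 27150000 and 28150000 (the expanded prolactin family) or between 61000000 and 61550000 (the placental cathepsins). The rule uses position alone. It found 31 prolactin windows and 23 cathepsin windows, 54 of the 54034 windows in the table. They run from 27238553 to 28140635 in the prolactin cluster and from 61011790 to 61509011 in the cathepsin cluster. The control group held 10 embryos (replicates 1 to 10) with the genotype label Control. The other 10 (replicates 11 to 20) carry the label Padi6-mutant and, per the series text, came from oocytes with the Padi6P620A allele, so the mutation is maternal. The labels give no strain, mother, litter, sex or batch, so a p-value here reflects only the spread of values between single embryos. That spread mixes differences between embryos with measurement error, which cannot be separated without read counts. DNA of each whole blastocyst was sequenced after bisulfite treatment, so a level averages over trophectoderm and inner cell mass. The table holds no expression values, and the tissue label was not checked against markers.

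Prolactin family members are hormones and hormone-like proteins. In rodents the ancestral pituitary gene Prl has given rise to a large tandem array whose other members are made mainly by trophoblast giant cells, spongiotrophoblast and decidua. The placental cathepsins are cysteine proteases of the cathepsin L type that expanded in rodents in a tandem array of their own and are expressed in trophoblast. Many genes of both arrays come on as trophoblast cells differentiate. CpG-poor promoters such as these usually carry methylation in most somatic tissues, whereas the preimplantation genome is broadly hypomethylated.

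No annotation of build GRCm39 was used here, so windows carry positions and no gene names. Gene order was read from RefSeq on build GRCm38.p6, without converting coordinates. There the run from Prl to Prl5a1 holds 31 genes, of which 23 are protein-coding members of the family and none of the other 8 is protein-coding. The run from Ctsj to Cts3 holds 14 genes, of which 8 are protein-coding cathepsins and 3 carry cathepsin symbols but are not protein-coding. On that build the neighbours Ctla2b and Ctla2a lie before Ctsj (promoters from 60897398, 60936576 and 61005876). Cathepsin windows 3, 8, 12 and 13, numbered by start, are spaced much as the promoters of Ctla2b, Ctla2a, Ctsj and Ctsq. Cathepsin windows 1 to 11 may thus belong to neighbours, and windows 1 to 4 are among those tested. Whether each window belongs to a gene of these families was not tested, so prolactin window and cathepsin window name a position only.

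Promoter sequences were matched by gene symbol to RefSeq (GRCm38.p6), each 300 bases from 250 before to 50 after the start. They are shown because bisulfite sequencing reads methylation at CpG sites, of which these promoters hold few. Capitals mark CpG sites and the letters TATATA. Prl3d1 encodes placental lactogen I and Prl3d2 is a close copy of it (87.4% identity over the promoter). Prl3b1 encodes placental lactogen II. Prl3c1 and Prl2b1 are the prolactin promoters with the fewest and the most CpG sites. Cts6 and Cts7 stand for the cathepsins, with and without CpG sites. No sequence is tied to a window here.
Prl3d1, chr13:27093939-27094238 (+ strand): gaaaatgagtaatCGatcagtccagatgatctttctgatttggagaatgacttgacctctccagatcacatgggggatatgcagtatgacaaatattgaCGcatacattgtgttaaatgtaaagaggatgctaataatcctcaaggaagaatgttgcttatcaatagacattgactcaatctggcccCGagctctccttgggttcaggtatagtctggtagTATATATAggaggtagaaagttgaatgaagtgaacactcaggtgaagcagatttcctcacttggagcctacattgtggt
Prl3d2, chr13:27121445-27121744 (+ strand): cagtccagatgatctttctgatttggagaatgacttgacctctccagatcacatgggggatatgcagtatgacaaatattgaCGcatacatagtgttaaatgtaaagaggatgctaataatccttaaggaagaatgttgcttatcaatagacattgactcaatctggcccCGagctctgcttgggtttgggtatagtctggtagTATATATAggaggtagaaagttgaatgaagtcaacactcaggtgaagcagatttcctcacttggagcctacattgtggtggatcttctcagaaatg
Prl3b1, chr13:27242180-27242479 (+ strand): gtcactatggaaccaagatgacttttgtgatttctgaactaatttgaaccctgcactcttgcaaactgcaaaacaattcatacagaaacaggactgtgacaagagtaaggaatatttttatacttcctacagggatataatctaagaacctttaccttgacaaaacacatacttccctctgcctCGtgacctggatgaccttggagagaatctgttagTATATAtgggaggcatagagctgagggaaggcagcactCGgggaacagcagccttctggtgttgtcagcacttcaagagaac
Prl3c1, chr13:27196410-27196709 (+ strand): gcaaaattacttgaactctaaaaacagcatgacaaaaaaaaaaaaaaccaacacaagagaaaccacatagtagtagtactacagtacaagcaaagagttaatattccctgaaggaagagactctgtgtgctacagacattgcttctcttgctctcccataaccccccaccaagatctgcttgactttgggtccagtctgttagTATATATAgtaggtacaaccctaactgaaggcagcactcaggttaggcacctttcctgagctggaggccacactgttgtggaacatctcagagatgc
Prl2b1, chr13:27390797-27391096 (- strand): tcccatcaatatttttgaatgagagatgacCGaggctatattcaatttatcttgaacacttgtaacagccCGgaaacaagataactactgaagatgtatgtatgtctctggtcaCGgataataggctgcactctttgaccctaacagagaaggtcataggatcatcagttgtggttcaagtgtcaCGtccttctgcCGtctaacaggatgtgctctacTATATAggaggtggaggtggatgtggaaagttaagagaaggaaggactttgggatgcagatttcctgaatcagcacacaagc
Cts6, chr13:61203343-61203642 (- strand): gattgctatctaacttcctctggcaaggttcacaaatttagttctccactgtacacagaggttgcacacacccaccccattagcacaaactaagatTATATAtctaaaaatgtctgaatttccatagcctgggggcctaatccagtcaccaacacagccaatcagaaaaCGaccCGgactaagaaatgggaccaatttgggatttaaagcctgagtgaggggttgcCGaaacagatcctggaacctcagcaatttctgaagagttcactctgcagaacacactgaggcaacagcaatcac
Cts7, chr13:61358147-61358446 (- strand): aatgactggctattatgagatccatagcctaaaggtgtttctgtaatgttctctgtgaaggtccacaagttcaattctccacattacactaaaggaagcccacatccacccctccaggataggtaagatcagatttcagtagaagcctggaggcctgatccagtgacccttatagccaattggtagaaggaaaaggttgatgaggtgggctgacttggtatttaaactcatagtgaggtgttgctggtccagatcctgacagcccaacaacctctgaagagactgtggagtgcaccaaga
In the list of 26 prolactin genes, 22 matched, with 25 promoters. Prl2c1, Prl2c2, Prl7b1 and Prl8a2 had no entry. All 9 cathepsin genes matched, with 9 promoters. Of the matched genes, Prl2c3, Prl2c5 and Ctsll3 lie outside the runs given above. The runs were not matched to the intervals of the rule, so listed genes inside a run may also lie outside the windows. The equal counts of 31 genes and 31 prolactin windows are no pairing.

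These promoters were poor in CpG sites. The prolactin promoters held 0 to 5 sites (median 2) and the cathepsin promoters 0 to 3 (median 1), whereas the 32851 promoters of the table had a median of 7. All 25 prolactin and all 9 cathepsin promoters had at most 5 sites, as did 43.6% of all promoters. No CpG site was present in 3 of the 9 cathepsin promoters (Cts3, Cts7 and Ctsr), in 1 of the 25 prolactin promoters and in 5.43% of all promoters.

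TATATA, a form of the TATA box core that reads the same on both strands, was present in 22 of 25 prolactin promoters (88.0%), in 1 of 9 cathepsin promoters (Cts6) and in 5.67% of all promoters. In 15 of the 22 prolactin promoters the last copy began 25 to 40 bases before the start, and the median distance was 30 bases. The copy in Cts6 began at base 97 of the 300, farther from the start than that range. Other forms of the TATA box were not counted. Duplicated genes share sequence, so the promoters are not independent cases, and the match is a description. Among 231 pairs of prolactin promoters the median identity was 51.8%, and 4 pairs reached at least 90%. The closest were Prl3d2 and Prl3d3 (97.0%) and the proliferin genes Prl2c3 and Prl2c5 (95.3%). The proliferin-related gene Prl7d1 matched Prl2c3 at 94.4%. Among the 36 cathepsin pairs the closest were Ctsm and Cts3 (89.8%), and the median was 54.8%.

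**Figure D1:**
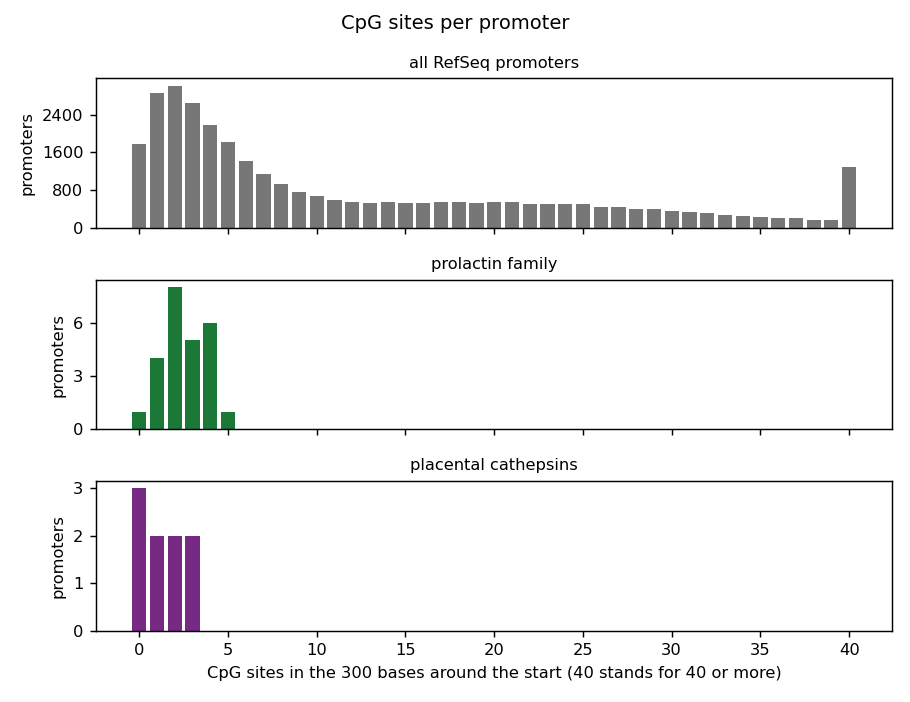
Number of promoters (vertical axis) by CpG sites in the 300 bases around the start (horizontal axis, 40 stands for 40 or more), for all RefSeq promoters of GRCm38.p6, the prolactin family and the placental cathepsins. Both families end at or below 5 sites, whereas the median of all promoters is 7.

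Both clusters were thinly covered. Read depth is unknown, because the table gives levels without counts, so the number of windows with a value stands for coverage. Densely covered embryos (more than 30000 windows with a value over the whole table) numbered 6 in the control and 3 in the mutant group. The other 4 control and 7 mutant embryos were sparsely covered, with 4984 to 17002 and 2875 to 13847 windows. In densely covered control embryos 46.2% of the prolactin and 52.9% of the cathepsin measurements had a value, against 79.1% over all windows. In the 3 densely covered mutant embryos the shares were 37.6%, 47.8% and 76.5%. The cluster share lay below the embryo's own share over all windows in all 9 densely covered embryos, for each cluster.

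In sparsely covered embryos almost nothing was left. Of the 11 such embryos, 9 gave a value in 1 or 2 prolactin windows and 2 in none (control replicate 6 and mutant replicate 20). For the cathepsins the sparsely covered embryos gave 0 to 4 windows, with none in mutant replicate 17. A prolactin window had a value in 2 to 7 of the 20 embryos (median 4) and a cathepsin window in 1 to 10 (median 5), against a median of 10 over all windows. On a fixed grid of 500 kb, ranked by coverage from the lowest among 3713 regions with at least 5 windows, the region from 27500001 to 28000000 stood at place 155. The region from 61000001 to 61500000 stood at place 425. Their shares of measurements with a value were 21.1% and 28.0%, against a median of 47.1%.

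**Figure D2:**
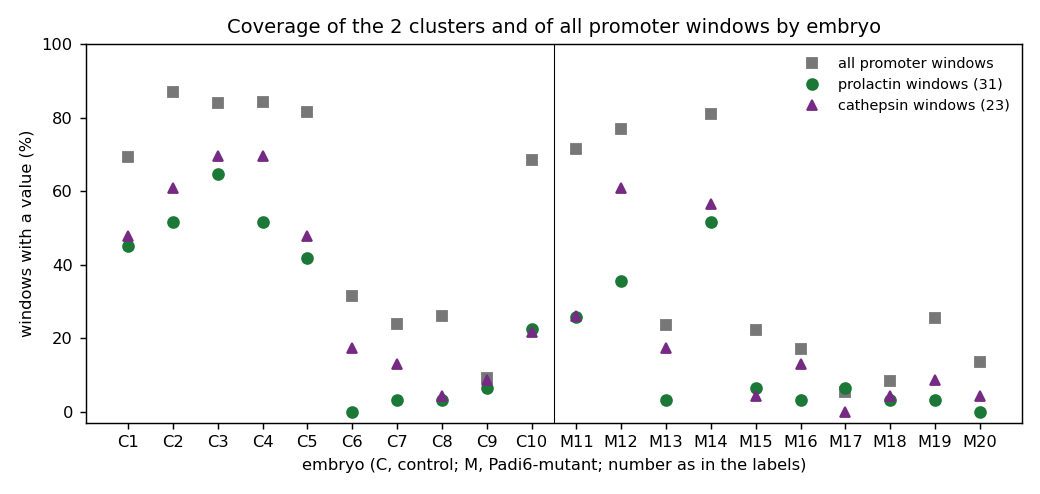
Share of windows with a value (vertical axis, percent) in each embryo (C, control; M, Padi6-mutant; number as in the labels), for all promoter windows (squares), the 31 prolactin windows (circles) and the 23 cathepsin windows (triangles). Both clusters lie below all windows in each of the 9 densely covered embryos; in sparsely covered embryos the clusters reach at most 17.4%.

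The values that exist fell on coarse steps. In densely covered control embryos, 59.3% of the 86 prolactin values were exactly 0 and 18.6% exactly 50. Among the 73 cathepsin values there, 56.2% were exactly 0 and 13.7% exactly 50. Over all windows of the same embryos 41.2% of values were exactly 0 and 6.92% exactly 50. Values of 50% or more made up 20.9% of prolactin and 20.5% of cathepsin values, against 12.1% over all windows.

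Control levels of both clusters scattered on both sides of the level over all promoters. In the 6 densely covered control embryos the mean over the covered prolactin windows was 16.7% ± 8.91 (SD, n = 6). Replicate 4 was the lowest at 5.21%, the median was 13.9% and replicate 10 was the highest at 29.0%, the last from 7 windows. The same embryos stood at 14.8% ± 1.47 (SD, n = 6) over all windows, and the prolactin mean lay above the embryo's own mean over all windows in 2 of 6 (mean gap 1.85 points ± 9.81, SD, n = 6). The cathepsin mean was 15.1% ± 8.0 (SD, n = 6). It ran from 0% in replicate 10, which gave 5 windows, over a median of 17.1% to 21.9% in replicate 2, and 3 of 6 embryos lay above their own mean over all windows (mean gap 0.25 points ± 7.03, SD, n = 6).

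Windows varied widely within each cluster, and embryos varied within a window. Among windows with a value in at least 3 densely covered control embryos, the 18 prolactin windows had means from 0% to 52.7% (median 15.3%). The 14 such cathepsin windows ran from 0% to 47.2%, also with a median of 15.3%, and the 48463 windows of the whole table had a median of 10.6%. Means under 5% were found in 2 of the 18 prolactin and 2 of the 14 cathepsin windows, against 30.2% of all windows. Of the 27 prolactin windows with at least 2 control values, 6 were at 0% in every control embryo covered. Another 13 held both a value of 0% and a value of 50% or more. For the cathepsins these counts were 4 and 13 of 21. Only 2 prolactin windows and 1 cathepsin window had no control embryo at 0%.

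**Figure D3:**
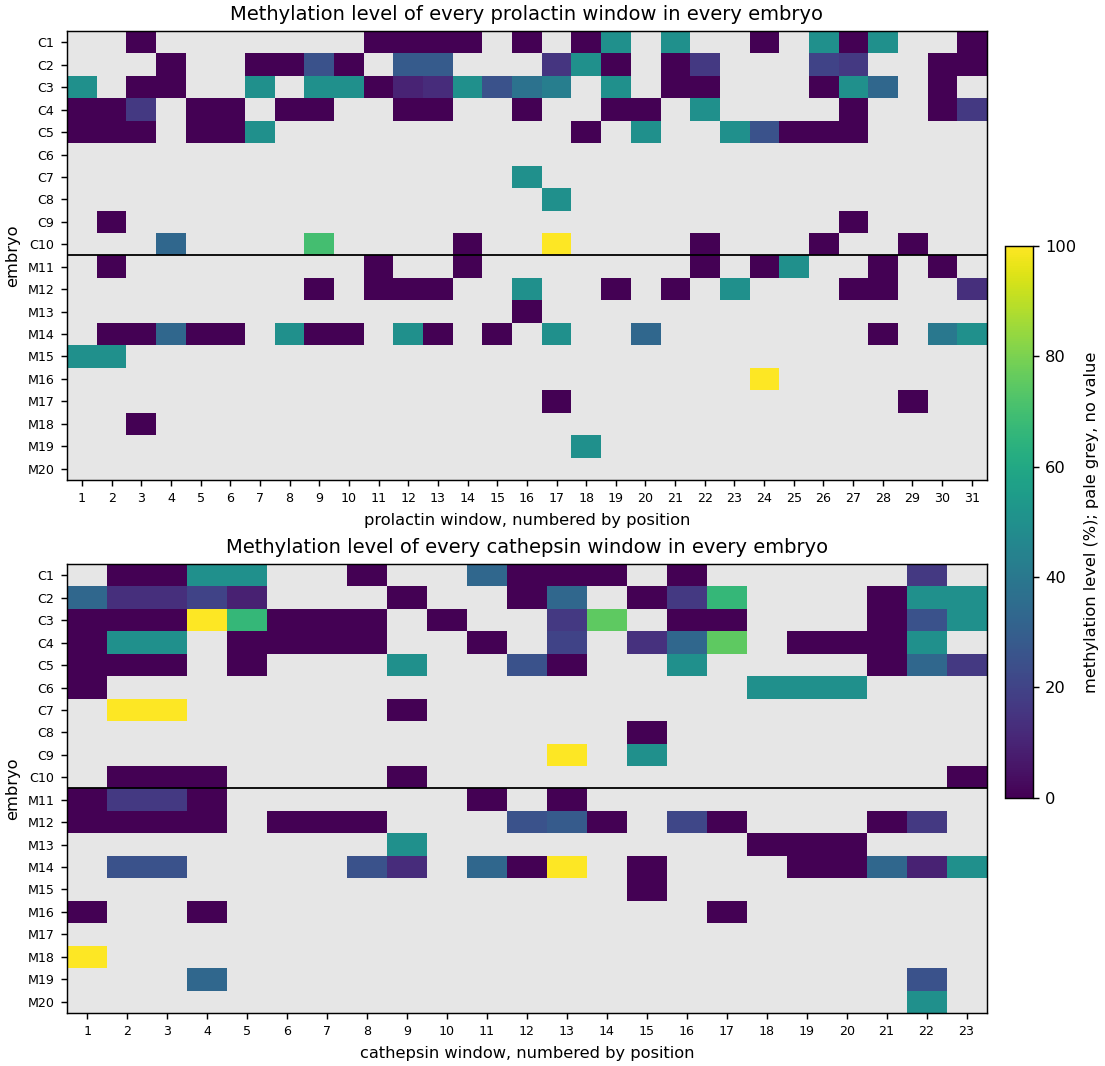
Methylation level (colour, percent) of each of the 31 prolactin windows (upper panel) and 23 cathepsin windows (lower panel), numbered by position, in each embryo (rows, controls above the line); pale grey marks no value. The rows of sparsely covered embryos are nearly empty, and 0% and 50% are the commonest colours.

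In the prolactin cluster, 2 windows had a value in at least 5 control embryos. Window 26 (chr13:27964288-27967787) was at 0% in control replicates 3, 5 and 10, at 20% in replicate 2 and at 50% in replicate 1, a mean of 14%. No mutant embryo gave a value there. Window 27 (chr13:27982637-27986136) was the most often covered, in 7 embryos. Its control values were 0% in 4 of 6 embryos, 16.7% in replicate 2 and 50% in replicate 3, a mean of 11.1%, and its single mutant value was 0%. Window 3 (chr13:27275173-27278672) was at 16.7% in control replicate 4 and at 0% in the other 3 control and both mutant embryos. Window 3 was covered in 6 embryos, as were 6 other windows, and was taken by position. In these 3 windows most control values were 0%, and the mutant values were too few to compare (0, 1 and 2 embryos). The highest mean among windows with at least 4 control values, chosen after its values were seen, was that of window 17 (chr13:27622172-27625671). Its control values were 15.4%, 42.9%, 50% and 100% (mean 52.1%), and its mutant values were 50% in replicate 14 and 0% in replicate 17, inside or below the range of the controls.

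In the cathepsin cluster, 6 windows that do not overlap each other had a value in at least 5 control embryos. Window 22 (chr13:61481269-61484768) had the highest mean, 35.0% ± 14.9 (SD, n = 5), and was the one without a control embryo at 0%: its values were 16.7%, 25%, 33.3%, 50% and 50%. Window 1 (chr13:61011790-61015289) had the lowest mean, 6.67%, with 4 of 5 control embryos at 0% and replicate 2 at 33.3%. Window 16 (chr13:61350725-61354224) had control values of 0%, 0%, 16.7%, 33.3% and 50%, with 21.4% in its single mutant embryo. Window 5 (chr13:61072900-61076399) had control values of 0%, 0%, 9.09%, 50% and 66.7% and no mutant value. Control embryos thus spanned 50 points or more in both.

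The comparison of mutant with control embryos asked whether the maternal mutation changes methylation at the windows of both clusters in the blastocyst. No window of either cluster passed the threshold, an adjusted p under 0.05. limma was fitted to the percent of every window covered in 3 or more embryos per group, with Benjamini-Hochberg adjustment over all 37645 such windows. Of these, 14 passed (0.0372%), and 2166 (5.75%) had an unadjusted p under 0.05. The filter kept 1 of 31 prolactin windows and 6 of 23 cathepsin windows, of which 2 overlap and hold the same values. Of these 7, 0 passed, and 0 had an unadjusted p under 0.05. By an exact rank-sum test 0 of 37645 windows passed, and the smallest unadjusted p among the 7 was 0.257. With so few values per group the test's smallest possible p would not pass adjustment over all windows, so it could not call these 7. The other 47 windows could not be tested: 29 prolactin and 17 cathepsin windows had fewer than 3 mutant values, and 1 more prolactin window had fewer than 3 control values.

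The tested prolactin window 2 (chr13:27241506-27245005) was at 0% in control replicates 4, 5 and 9. Mutant replicates 11 and 14 were at 0% too, and replicate 15 was at 50%. The groups overlapped, and the difference of 16.7 points (SE 14.8, limma adjusted p = 0.834) rests on that embryo. Window 2 overlaps window 1, and windows 1 and 3 are spaced much as the promoters of Prl, the pituitary gene, and Prl3d1. Which gene window 2 belongs to was not tested. No other prolactin window was tested, so a trophoblast promoter of this family may not have been tested at all.

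Cathepsin window 4 (chr13:61052195-61055694) had the largest difference among the tested windows. Control replicates 10, 2, 1 and 3 were at 0%, 20%, 50% and 100%, a mean of 42.5%. Mutant replicates 11, 12 and 16 were at 0% and replicate 19 at 33.3%, a mean of 8.33%. The groups overlapped, and the difference of -34.2 points (SE 21.2) did not pass (limma adjusted p = 0.834). It was -15.0 points without control replicate 3 and -48.3 points without control replicate 10.

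The remaining tested cathepsin windows differed in both directions, with limma adjusted p from 0.841 to 0.913. In window 22 the mutant values were 9.68%, 16.7%, 25% and 50% against a control mean of 35.0%, a difference of -9.66 points (SE 10.2). It ran from -4.44 points without mutant replicate 14 to -17.9 points without mutant replicate 20, and was -5.91 points without control replicate 2 or 4. With coverage as a covariate it was -22.3 points, and with embryo quality weights -16.1 points. In window 2 (chr13:61044209-61047708), covered in 10 embryos, 4 of 7 control embryos were at 0%, and replicates 2, 4 and 7 were at 13.6%, 50% and 100%. Its mutant values were 0%, 16.7% and 25%, a difference of -9.49 points (SE 21.8) that turned to 3.28 points without control replicate 7. Window 3 overlaps it and held the same values. In window 1 mutant replicates 11, 12 and 16 were at 0% and replicate 18 at 100%, which gave 18.3 points (SE 21.4). Without mutant replicate 18 the difference was -6.67 points. In window 13 (chr13:61187946-61191445) the control values ran from 0% over a median of 18.3% to 100% in replicate 9, and the mutant values were 0%, 28.6% and 100%, a difference of 14.5 points (SE 27.3). It was 8.86 points without control replicate 1 or 5, and 28.9 points without control replicate 9 or in densely covered embryos alone. With coverage as a covariate it was 25.7 points, and with embryo quality weights 9.51 points. In each of these windows the ranges of the groups overlapped.

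**Figure D4:**
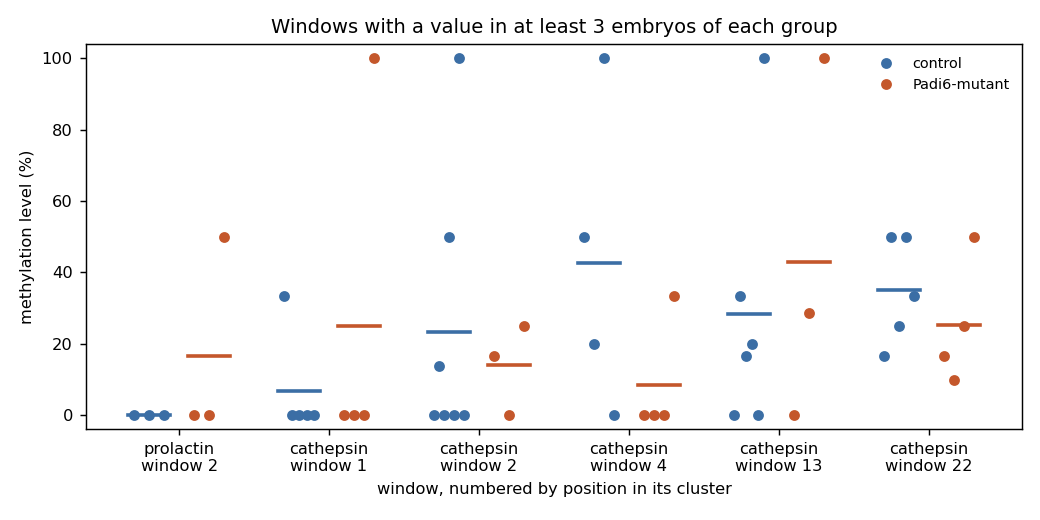
Methylation level (vertical axis, percent) of each embryo (points) in the tested windows that do not overlap, with the mean of each group (bars); control blue, Padi6-mutant orange. In every window shown the groups overlap.

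Direction was also counted over windows with any value in both groups. Of 29 prolactin windows the mutant mean was lower in 12, equal in 5 and higher in 12 (median difference 0.0 points). Of 21 cathepsin windows it was lower in 10, equal in 3 and higher in 8 (median 0.0 points). Over 51305 windows of the whole table it was lower in 56.2%, equal in 2.98% and higher in 40.8% (median -1.41 points). Within densely covered embryos, 13 of 26 prolactin windows and 7 of 20 cathepsin windows were lower, against 56.6% of all windows.

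The level over a cluster gave no separation of the groups either; it is described without a test. Over all embryos with a value, the prolactin windows stood at 22.2% ± 18.1 (SD, n = 9) in the control group. The mutant group stood at 26.2% ± 34.2 (SD, n = 9), which was 3.96 points higher (SE 12.9). This mean counts an embryo with 1 window as much as one with 20. Mutant replicate 16 stood at 100% from a single window, and without it the difference was -5.27 points. In densely covered embryos the mutant level was 11.9% ± 6.61 (SD, n = 3), with replicate 11 at 6.25%, replicate 12 at 10.3% and replicate 14 at 19.2%. Against the 16.7% of the 6 control embryos the difference was -4.78 points (SE 5.27). All 3 lay inside the control range.

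For the cathepsin windows the control level was 27.0% ± 25.6 (SD, n = 10) and the mutant level 25.3% ± 32.4 (SD, n = 9), a gap of -1.65 points (SE 13.5). Mutant replicate 18 stood at 100% from a single window, and without it the difference was -10.98 points. It turned positive without control replicate 7 (2.76 points) or 9 (3.69 points) or mutant replicate 11, 12, 15 or 16 (0.70 to 1.52 points), and over windows that do not overlap (1.80 points). In densely covered embryos the mutant level was 12.1% ± 10.5 (SD, n = 3), with 5.56%, 6.55% and 24.1% in replicates 11, 12 and 14, the last above the highest control embryo. The difference from the 15.1% of the control embryos was -3.01 points (SE 6.86). Over all promoter windows the same embryos differed by -2.90 points (SE 3.09) when densely covered and by -2.51 points (SE 1.19) when all 20 were used. In both clusters mutant replicate 14 was the highest of the densely covered mutant embryos, as it was over all windows (17.6%, against 11.1% and 7.16% in replicates 11 and 12).

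**Figure D5:**
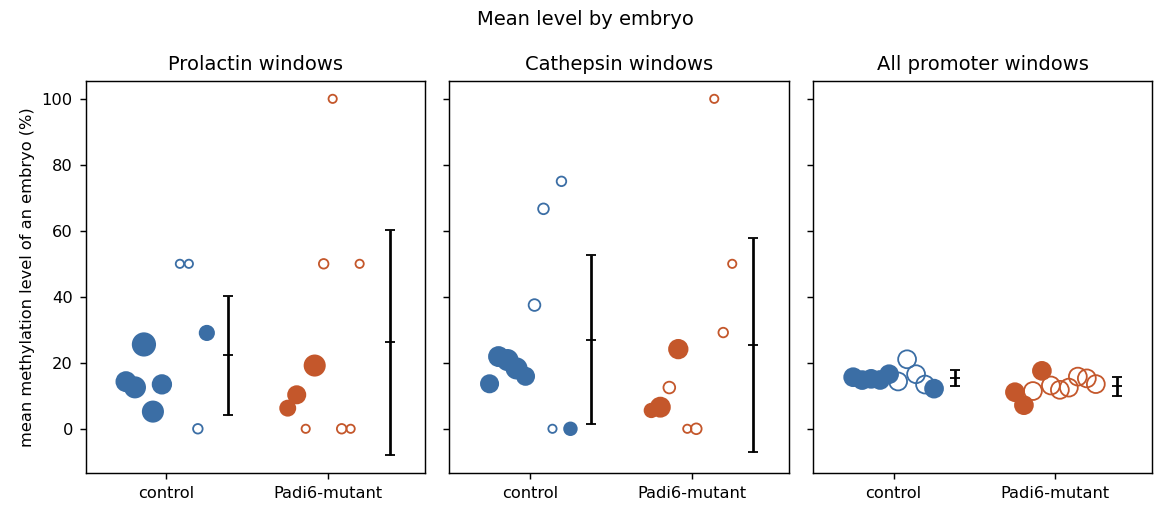
Mean methylation level of each embryo (vertical axis, percent) over the prolactin windows, the cathepsin windows and all promoter windows, by group; filled points are densely and open points sparsely covered embryos, and the area of a point grows with its covered windows (fixed in the third panel). Black marks give the mean ± SD; the spread is wide where embryos rest on 1 to 4 windows.

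Regions of a fixed 500 kb grid were then compared over all embryos with at least 3 covered windows in the region, in 1 limma fit across 1979 regions. Of these 1 passed (0.0505%) and 179 had an unadjusted p under 0.05 (9.04%); the median difference was -2.18 points. The region from 61000001 to 61500000, made up of 22 cathepsin windows, did not pass. Its control level was 23.8% ± 20.1 (SD, n = 8), from 0% in replicate 10 over a median of 18.6% to 66.7% in replicate 7. The mutant values were 5.56%, 6.55%, 12.5%, 21.99% and 0% in replicates 11, 12, 13, 14 and 16. Each of the 5 was lower than the mean of the controls, but none was lower than their lowest embryo. The difference was -14.5 points (SE 7.95, unadjusted p = 0.0839, limma adjusted p = 0.63). It was -8.38 points without control replicate 7, -3.03 points in densely covered embryos and -1.47 points when embryos with 1 or 2 windows were let in. Overlapping windows that repeat a value each counted here. The 66.7% of control replicate 7 rests on windows 2 and 3, which overlap and are both at 100%, and window 9 at 0%. Over windows that do not overlap, 6 control embryos stood at 16.7% and 4 mutant embryos at 9.60%, too few to test.

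The 3 regions that hold the prolactin windows had too few mutant embryos with 3 covered windows to be tested (2 or 3 against a minimum of 5). With 1 window as the minimum they differed by 0.04 points (27000001 to 27500000), 5.94 points (27500001 to 28000000) and -9.50 points (28000001 to 28500000), with limma adjusted p of 0.999, 0.881 and 0.84. On a grid of 5 Mb the region from 25000001 to 30000000, with 31 prolactin windows among 74, had a control level of 15.1% ± 8.01 (SD, n = 10) and a mutant level of 14.2% ± 8.12 (SD, n = 9). The difference was -0.89 points (SE 3.50, limma adjusted p = 0.923). The region from 60000001 to 65000000, with 23 cathepsin windows among 168, differed by -5.19 points (SE 2.66, limma adjusted p = 0.339). The difference over all promoters (-2.51 points in all 20 embryos, -2.90 points in densely covered ones) was smaller than the standard errors of the 2 cluster levels in the same embryos (12.9 and 13.5 points, and 5.27 and 6.86 points). A difference of that size was not detectable in the cluster levels.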

How the data were processed

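Bisulfite reads came from 20 single blastocysts. The submitters' processing notes name Trim Galore 0.4.4, Bismark 0.18.2 and build GRCm39. The deposited table gives each window's methylation level in percent (recorded as a score, because 1594 of 491705 values exceed 100); how calls were combined within a window is not given in the sources used here. After 46 repeated rows were dropped, 54034 windows remained. The values above 100 were whole numbers and were divided by 1000, as percents that had lost a decimal point; neither cluster held any. Groups come from the sample titles.

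limma 3.58.1 in R 4.3.3 was run at default settings on the percent. It was also tried on the same values shuffled between embryos within windows, with known shifts added to some windows, and the outcome is not given here. Windows had to be covered in 3 or more embryos per group, and 500 kb regions in at least 5 embryos per group with at least 3 covered windows each. Windows are numbered by start within a cluster. Named windows were those past the threshold, the 4 largest decreases and increases (at least 5 embryos per group in the prolactin, 3 in the cathepsin cluster), the 5 highest and 3 lowest control means (at least 5 control embryos) and the 3 covered in the most embryos (ties by position), skipping overlaps. Members, lists and rules were chosen with earlier results of these data known. Cluster levels are plain means over covered windows, given without a test. Promoter identity is from global alignments.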

Additional observations from a re-analysis of the deposited data

Results flagged for a closer look

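In 17 groups of 4 to 10 values checked, 8 held an embryo whose gap to its nearest neighbour was a large part of the range of the group. The limit is set to flag about 1 in 20 groups of values without ties, so that rate is no yardstick here. Many values are exactly 0%, and where all others tie at 0% the remaining one is always flagged. Among mutant embryos, replicate 16 stood at 100% in the prolactin level and replicate 18 at 100% in the cathepsin level, each from a single window. The same value puts replicate 18 apart in cathepsin window 1 (100%, the other 3 mutant embryos at 0%). In that window control replicate 2 stood apart at 33.3%. Mutant replicate 19 stood apart at 33.3% in cathepsin window 4, and control replicate 9 at 100% in cathepsin window 13. In the prolactin cluster, control replicate 4 stood apart at 16.7% in window 3 and control replicate 3 at 50% in window 27.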

How the results depend on the processing

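No paired analysis was possible because the groups share no replicate number (1 to 10 in one, 11 to 20 in the other). The comparisons of cluster level by embryos with at least 3 covered windows and by the mean over all values were chosen after seeing the data. No cluster window passed under any of the alternatives that left one to test, though the exact rank-sum test could not have called one. At least 5 or at least 7 embryos per group left none. Densely covered embryos left no prolactin and 3 cathepsin windows. Leaving out any embryo with a value in the tested prolactin window left that window untested. The number of 500 kb regions past the threshold, 1, was 2 on a 1 Mb grid, 2 with at least 1 covered window, 0 over non-overlapping windows, 0 in densely covered embryos and 1 to 4 with single embryos left out; the cause was not tested. The 500 kb cathepsin region and the 1 Mb and 5 Mb regions around it had a lower mean in mutant embryos in all 22 refits that could test them, none past the threshold (limma adjusted p 0.339, on the 5 Mb grid where 23 of 168 windows are cathepsin windows, to 0.971); with non-overlapping windows, or without mutant replicate 11, 12, 13, 14 or 16, the 500 kb region had too few embryos to test. Leaving out single embryos moved the difference in level from -5.27 to 7.43 points for the prolactin and from -10.98 to 3.69 points for the cathepsin windows. For the cathepsin windows it was -9.08 points (SE 6.45) with values of exactly 0 and 100 left out, where 4 of 6 mutant embryos lay below the lowest control embryo, -12.8 points (SE 23.1) in sparsely covered embryos, -2.75 points as deviations from window means and -0.55 points over windows with at least 3 embryos per group, against -1.65 points in all embryos; for the prolactin windows the first of these settings gave 4.11 points, sparsely covered embryos 0.0 and deviations 4.84, against 3.96, the median over windows 7.02 and windows with at least 3 embryos per group (1 window) 16.7. Over all values of a group the difference was 0.37 and -5.68 points, and in embryos with at least 3 covered windows -4.78 and -14.6 points. Of all windows of the table, 14 passed; 16 passed with embryo quality weights, 4 in densely covered embryos, 3 with coverage as a covariate or at least 7 embryos per group, 1 on the arcsine scale or without windows of low level, 0 with at least 5 embryos per group (727 before adjustment, p under 0.05) or with a trended robust variance (1705), and 0 to 18 with single embryos left out. Cathepsin window 1 turned to -0.16 points with embryo quality weights, -4.70 with coverage as a covariate and -6.67 without mutant replicate 18 (single embryos left out: -6.67 to 26.7). Cathepsin window 2 turned to 3.28 points in densely covered embryos and without control replicate 7 (single embryos left out: -13.4 to 3.28).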

Other observations

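Within the prolactin cluster the second 500 kb of the grid (27500001 to 28000000, 14 windows) had a higher mean level than the first (27000001 to 27500000, 14 windows, 13 of them in the cluster) in each embryo with at least 3 covered windows in both. This contrast was chosen after the values were seen and is given without a test. In control replicates 1 to 5 the first region stood at 0%, 12.9%, 22.3%, 1.85% and 7.14% and the second at 18.8%, 16.96%, 28.4%, 10.0% and 17.9%. The mean gap was 9.56 points ± 5.70 (SD, n = 5). Mutant replicates 12 and 14 stood at 5.0% and 13.6% in the first and at 20.0% and 27.8% in the second. With embryos of 1 or 2 windows let in, 5 of 7 control and 3 of 3 mutant embryos were higher in the second region, control replicate 10 stood at 51.7% in the first and 25% in the second, and control replicate 9 was at 0% in both.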
